A study of Mus musculus with 12 samples.

Results

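The glutathione S-transferases described here were 10 genes of the mouse liver: Gsta3 and Gsta4 of the alpha class, Gstm1, Gstm2, Gstm3 and Gstm4 of the mu class, Gstt1 and Gstt2 of the theta class, Gstk1 of the kappa class, and Mgst1, a membrane-bound microsomal enzyme. They were taken as every probe set annotated with exactly 1 gene symbol among these 10, which gave 16 probe sets of 22626 tested and 10 of 12393 genes. The alpha class had 3 probe sets, the mu class 8, the theta class 2, the kappa class 1 and the microsomal class 2. All 16 entered the tests, since no filter on low signal was applied. Signals are given on the deposited log2 scale, on which a difference of 1 is a doubling.

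Whole-liver total RNA was measured on 12 Affymetrix 430A arrays, 3 for each of 4 groups: POR-null mice fed quercetin, POR-null mice fed the control diet, wild-type mice fed quercetin and wild-type mice fed the control diet. POR, cytochrome P450 oxidoreductase, passes electrons to the microsomal cytochromes P450; the labels do not say in which tissues its gene was disrupted, and Por itself was not analysed here, which leaves the labelled genotypes unchecked at that gene. All mice were male, aged 6 to 8 weeks, labelled as strain C57BL/6, and kept for 14 days on a powdered diet free of soya before the test; quercetin, a plant flavonol, was mixed into that diet at 6.2 g per kg (7 mg per mouse), and livers were collected 24 h later. Each array carried RNA pooled from 3 mice, and every p-value below rests on the spread from pool to pool.

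Glutathione S-transferases join the thiol of glutathione to electrophilic compounds, among them products of oxidative metabolism and of lipid peroxidation, and the conjugates then leave the cell through export pumps. The liver is rich in the cytosolic alpha and mu classes, which act as dimers, while the kappa enzyme sits in mitochondria and peroxisomes and Mgst1 in membranes. Many of these genes are known targets of NRF2, which acts through the antioxidant response element, and of the nuclear receptors CAR and PXR, which sense foreign compounds.

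Genotype separated a few members by a large amount, and the differences of most others did not pass the test. In POR-null livers the mu-class genes Gstm2 and Gstm3 were higher than in wild-type livers, by 1.49 ± 0.18 and 2.21 ± 0.27 on the log2 scale averaged over both diets, while the alpha-class gene Gsta4 fell by 0.61 ± 0.08 (difference ± SE, limma over 12 arrays, adjusted p = 0.00034, 0.00044 and 0.00067). For Gstm3 this is its probe set of highest mean signal. A probe set was called when its Benjamini-Hochberg adjusted p from limma, over all 22626 probe sets, was under 0.05. For the mean of both diets 5 of the 16 probe sets were called, 4 higher and 1 lower, beside 7.58% of all probe sets tested. On the quercetin diet alone 3 were called, all higher, beside 2.33% of all; on the control diet 2 were called, 1 higher and 1 lower, beside 1.16%. The median difference of the 16 was 0.37 on the quercetin diet, 0.14 on the control diet and 0.28 over both, against -0.02, -0.01 and -0.02 for all probe sets. In bulk liver, fewer cells of a type and less RNA per cell cannot be told apart.

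Gstm2 encodes a cytosolic mu-class subunit. Its probe set (1416411_at) read 8.95, 8.99 and 8.63 in the quercetin-fed POR-null pools and 9.32, 8.26 and 8.00 in the control-diet POR-null pools. In wild-type mice it read 6.95, 7.48 and 7.02 on quercetin and 7.28, 7.17 and 7.31 on the control diet. The lowest of the 6 POR-null arrays thus lay above the highest of the 6 wild-type arrays, on either diet. The difference was 1.71 ± 0.25 on the quercetin diet, or 3.27-fold (limma, adjusted p = 0.0040), and 1.28 ± 0.25 on the control diet, or 2.42-fold (limma, adjusted p = 0.028). The control-diet call rested on single arrays: without POR-null control pool 2, wild-type control pool 2 or wild-type control pool 3 it was not made, and leaving out 1 array at a time moved the difference between 0.88 and 1.54, while the quercetin-diet call was made each time.

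Gstm3, another mu-class gene, had 2 probe sets. The first (1427474_s_at) read 10.91, 11.55 and 10.88 in quercetin-fed POR-null pools and 11.79, 9.55 and 10.19 in control-diet POR-null pools, against 8.18, 8.63 and 8.15 in quercetin-fed wild-type pools and 9.07, 8.75 and 8.81 in control-diet wild-type pools. The second (1427473_at) read 8.92, 9.45 and 8.79 in quercetin-fed POR-null pools and 9.70, 7.46 and 7.91 in control-diet POR-null pools, against 6.77, 7.04 and 6.87 in quercetin-fed wild-type pools and 6.99, 6.97 and 6.98 in control-diet wild-type pools. In both probe sets every POR-null array lay above every wild-type array, and the control-diet POR-null pools were far more scattered (SD 1.16 and 1.18, n = 3) than the control-diet wild-type pools (SD 0.17 and 0.0081, n = 3). On the quercetin diet the POR-null pools were higher by 2.79 ± 0.39 and 2.16 ± 0.38, which is 6.93-fold and 4.47-fold (limma, adjusted p = 0.0027 and 0.0099). On the control diet the differences of 1.63 ± 0.39 and 1.38 ± 0.38 did not pass (limma, adjusted p = 0.059 and 0.098), with 95% intervals of 0.80 to 2.46 and 0.56 to 2.20. These intervals use a spread estimated from all 4 groups, not from the compared groups alone. Without POR-null control pool 2 or 3 the first probe set did pass on that diet, at 2.11 and 1.79. Without POR-null control pool 1 the control-diet differences were 0.99 and 0.71 and did not pass (limma, adjusted p = 0.11 and 0.16). The second probe set did not pass on the quercetin diet without POR-null quercetin pool 2, nor with a robust variance prior (limma, adjusted p = 0.055 and 0.064).

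**Figure D1:**
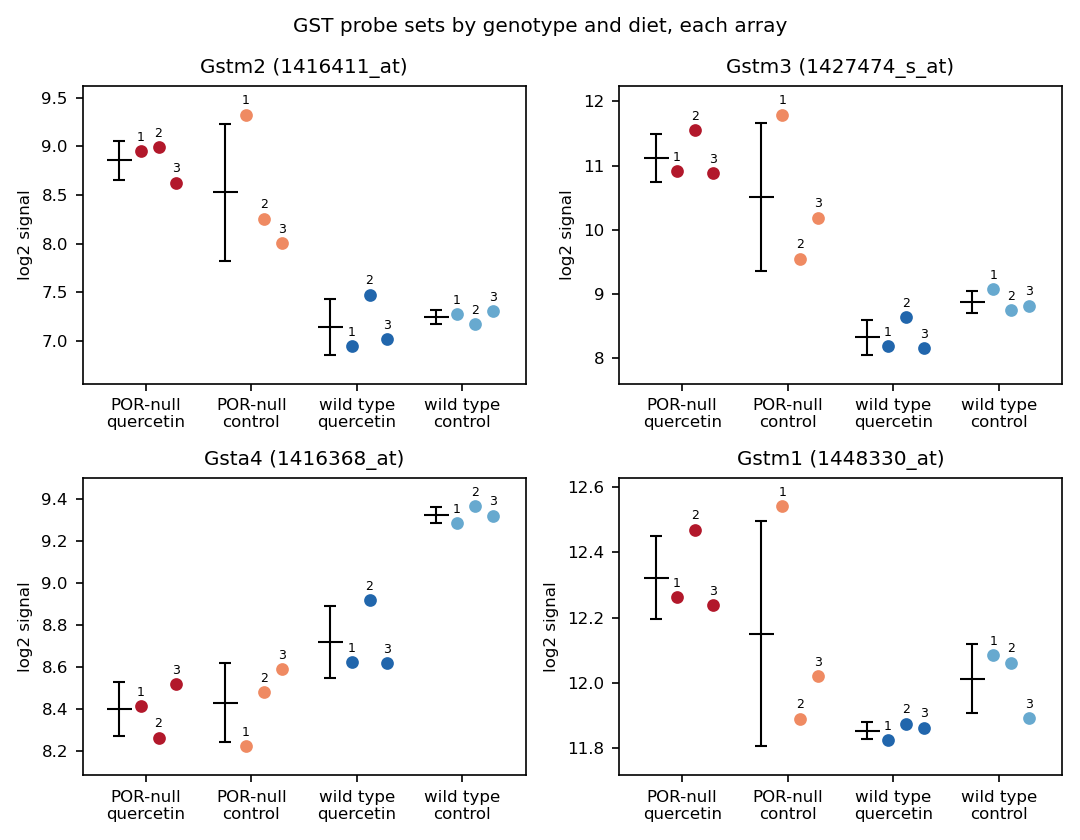
Log2 signal (y axis) of the Gstm2, Gstm3, Gsta4 and Gstm1 probe sets named above each panel, for the 4 groups along the x axis; points are arrays numbered by pool, horizontal bars are group means and whiskers are SD (n = 3). For Gstm2 and Gstm3 all 6 POR-null arrays sit above all 6 wild-type arrays, for Gsta4 the wild-type control arrays at 9.29 to 9.37 sit above all others, and pool 1 of the POR-null control group lies apart from pools 2 and 3 for Gstm2, Gstm3 and Gstm1.

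In the RefSeq gene table of build GRCm38.p6 the 4 mu-class members lie on chromosome 3, in the order Gstm3, Gstm2, Gstm1 and Gstm4 with no other listed transferase gene between them. Gsta3 lies on chromosome 1, Gsta4 on chromosome 9, Gstt1 and Gstt2 on chromosome 10, and Gstk1 and Mgst1 on chromosome 6. The signals of Gstm2 and Gstm3 followed each other across the 12 arrays, with Pearson r of 0.97 for Gstm2 against either Gstm3 probe set and 0.98 between the Gstm3 probe sets. Some members of the mu, theta and kappa classes whose genotype differences were smaller followed them too. Against the first and second Gstm3 probe sets, Gstm1 1416416_x_at, its highest, had r of 0.92 and 0.94, Gstt1 0.90 and 0.91, and Gstk1 0.86 and 0.87. Others of the mu and theta classes followed less closely: Gstm4 had r of 0.65 and 0.74, Gstm1 1425626_at 0.57 and 0.60, and Gstt2 0.24 and 0.30. These correlations are a description: the arrays share the genotype split, and mu-class transcripts are close in sequence, so one transcript may bind to another's probes, which was not tested. Probe sets with the suffix _s_at or _x_at are designed knowing that they may detect related transcripts, which concerns Gstm3 1427474_s_at and Gstm1 1416416_x_at and 1425627_x_at.

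The windows around the transcription start of Gstm3 and Gstm2, the mu genes with the largest genotype differences, are shown beside that of Gsta3, whose arrays overlapped between genotypes; each is 300 bases, 250 before and 50 after the annotated start, read 5′ to 3′ on the gene's own strand, from RefSeq build GRCm38.p6. The Gstm3 window is chr3:107969125-107969424, minus strand, and the Gstm2 window is chr3:107986371-107986670, minus strand; capitals mark the longest run of bases that both share. The Gsta3 window is chr1:21240335-21240634, plus strand; capitals mark its match to the core of the antioxidant response element.
Gstm3: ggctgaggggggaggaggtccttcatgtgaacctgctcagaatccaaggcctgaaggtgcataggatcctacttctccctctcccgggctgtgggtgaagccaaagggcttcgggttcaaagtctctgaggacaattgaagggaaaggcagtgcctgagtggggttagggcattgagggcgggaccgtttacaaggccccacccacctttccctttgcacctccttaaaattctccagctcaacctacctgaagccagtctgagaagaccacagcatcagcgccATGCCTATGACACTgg
Gstm2: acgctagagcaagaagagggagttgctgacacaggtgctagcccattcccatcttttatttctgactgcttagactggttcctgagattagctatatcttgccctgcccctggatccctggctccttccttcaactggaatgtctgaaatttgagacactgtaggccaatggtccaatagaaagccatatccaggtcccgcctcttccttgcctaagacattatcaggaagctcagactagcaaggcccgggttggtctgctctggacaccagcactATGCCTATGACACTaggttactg
Gsta3: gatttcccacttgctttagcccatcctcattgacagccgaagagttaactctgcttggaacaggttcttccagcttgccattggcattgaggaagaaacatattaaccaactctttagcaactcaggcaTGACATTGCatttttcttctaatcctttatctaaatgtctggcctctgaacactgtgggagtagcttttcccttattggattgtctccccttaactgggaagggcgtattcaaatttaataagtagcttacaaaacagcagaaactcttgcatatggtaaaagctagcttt

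The run shared by Gstm3 and Gstm2 was 14 bases long and lay after the transcription start in both windows. It opens with ATG, the letters of a start codon, and whether it belongs to the coding sequence was not checked. Gstm1 and Gstm3 shared a run of 16, and Gstm1 and Gstk1, which belong to different classes, also shared one of 14. The 8 members found in the promoter table were searched on both strands for TGACNNNGC, the core of the antioxidant response element, and for AGGTCA, a nuclear receptor half-site; read on the opposite strand AGGTCA is TGACCT, whose first letters can also open a TGACNNNGC. TGACNNNGC was present in Gsta3, as TGACATTGC, and in Mgst1, as TGACCGTGC on the opposite strand, and 12.4% of 32851 windows of this length held it. AGGTCA was present in Gstm1 and Gstk1, and 16.3% of windows held it. Neither was found in the windows of Gstm2, Gstm3, Gstm4 or Gstt1, which says only that these letters are not within those 300 bases.

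Gsta4, an alpha-class enzyme known for conjugating hydroxynonenal and related products of lipid peroxidation, moved the other way. Its probe set (1416368_at) read 8.42, 8.27 and 8.52 in quercetin-fed POR-null pools and 8.23, 8.48 and 8.59 in control-diet POR-null pools. It read 8.62, 8.92 and 8.62 in quercetin-fed wild-type pools and 9.29, 9.37 and 9.32 in control-diet wild-type pools. The arrays stood in 3 steps that did not overlap: the POR-null arrays on either diet were lowest, the quercetin-fed wild-type arrays followed and the control-diet wild-type arrays were highest. On the quercetin diet the genotype difference of Gsta4 was -0.32 ± 0.11, with a 95% interval of -0.56 to -0.08, and did not pass (limma, adjusted p = 0.16). On the control diet Gsta4 was 1.85-fold lower in POR-null livers, a log2 difference of -0.89 ± 0.11 (limma, adjusted p = 0.0026), and the call was made in each of 6 repeats that left out 1 array. Gsta3, the other alpha gene, had overlapping arrays in both of its probe sets: the difference was -0.10 ± 0.17 and -0.12 ± 0.25 on the quercetin diet, and -0.29 ± 0.17 and -0.14 ± 0.25 on the control diet.

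Gstm1, a mu-class gene with 4 probe sets, had differences of 0.47 to 0.55 on the quercetin diet and 0.14 to 0.25 on the control diet, with none of the 8 called. Its brightest probe set (1448330_at) read 12.26, 12.47 and 12.24 in quercetin-fed POR-null pools and 12.54, 11.89 and 12.02 in control-diet POR-null pools. It read 11.82, 11.87 and 11.86 in quercetin-fed wild-type pools and 12.08, 12.06 and 11.89 in control-diet wild-type pools. The genotypes were apart on quercetin, where the difference was 0.47 ± 0.13 (limma, adjusted p = 0.080), and overlapped on the control diet. Over both diets 1 of the 4 probe sets (1416416_x_at) was called, at 0.33 ± 0.09 (limma, adjusted p = 0.044), and that call was made in only 3 of 12 repeats that left out 1 array. Gstm4, the remaining mu gene, read 8.30, 8.60 and 8.32 in quercetin-fed POR-null pools and 8.61, 8.11 and 7.92 in control-diet POR-null pools, against 8.06, 7.86 and 8.26 in quercetin-fed wild-type pools and 7.80, 8.21 and 8.23 in control-diet wild-type pools. Its differences of 0.34 ± 0.17 on quercetin and 0.13 ± 0.17 on the control diet did not pass.

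None of the theta, kappa and microsomal members was called between genotypes, on either diet or over both. Gstt1, a theta-class enzyme that acts on small halogenated compounds, read 9.60, 9.88 and 9.75 in quercetin-fed POR-null pools and 10.01, 9.43 and 9.53 in control-diet POR-null pools, against 9.14, 9.49 and 9.43 in quercetin-fed wild-type pools and 9.47, 9.44 and 9.36 in control-diet wild-type pools. Over both diets it differed by 0.31 ± 0.10 (limma, adjusted p = 0.067), with a 95% interval of 0.10 to 0.52. Gstt2 differed by 0.11 ± 0.12, and its quercetin-fed wild-type arrays spanned 9.18 to 9.96. Gstk1, the mitochondrial and peroxisomal enzyme, differed by 0.33 ± 0.10 on quercetin (limma, adjusted p = 0.11), where its arrays read 10.14 to 10.35 in POR-null pools and 9.87 to 9.96 in wild-type pools. On the control diet Gstk1 differed by 0.07 ± 0.10 and its arrays overlapped (limma, adjusted p = 0.80). The brighter Mgst1 probe set (1415897_a_at) read 12.95 to 13.09 and 13.10 to 13.19 in POR-null pools on quercetin and control diet, against 12.92 to 13.05 and 12.88 to 13.14 in wild-type pools, and its 95% interval over both diets ran from -0.07 to 0.18. The dimmer Mgst1 probe set (1415898_at), at 4.10 to 4.77, lay below the median signal of every array (5.93 to 5.99).

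**Figure D2:**
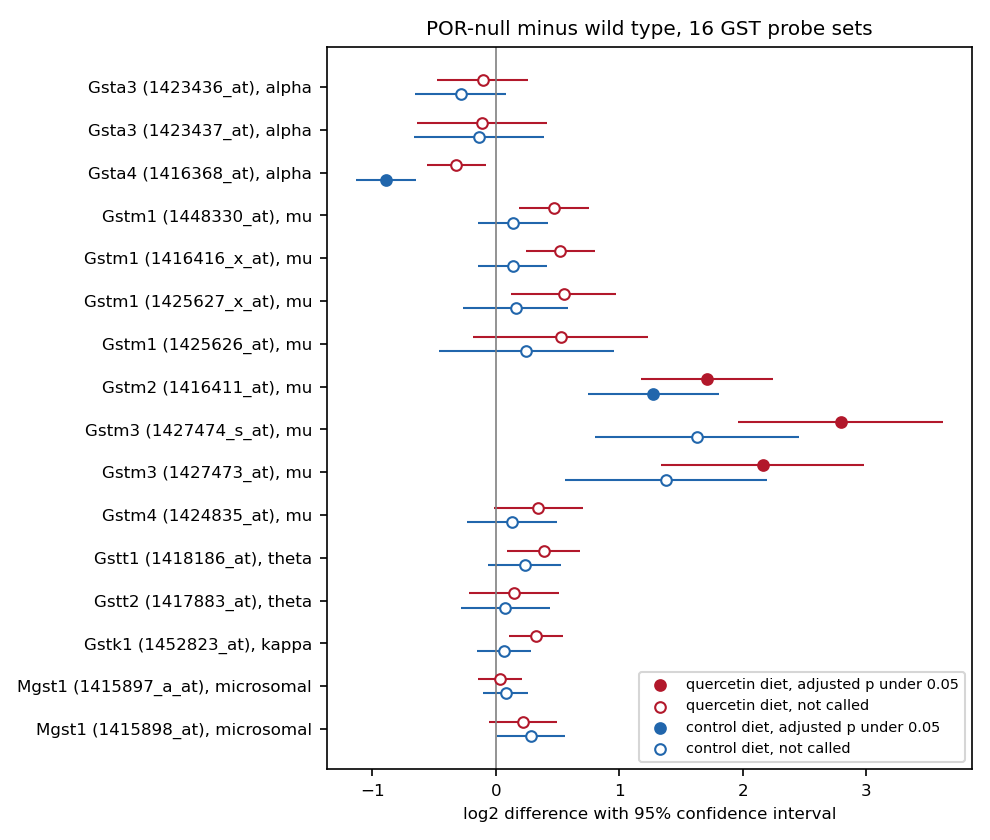
Log2 difference of POR-null minus wild type (x axis) for the 16 probe sets down the page, with 95% confidence intervals from limma; red stands for the quercetin diet and blue for the control diet, and filled points have an adjusted p under 0.05. The 8 mu-class probe sets lie right of 0 on both diets, the 3 alpha-class ones left of 0, and Gstm2, Gstm3 and Gsta4 hold the filled points.

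By class, all 8 mu-class probe sets were above 0 and all 3 alpha-class probe sets were below 0 on either diet, the called ones included. This holds for the members only. Outside them, the alpha gene Gsta2 rose by 0.58 on quercetin, a call made in 2 of 6 repeats without 1 array. On that diet the mu gene Gstm7 averaged 6.97 in POR-null and 6.98 in wild-type pools. Gstm5 and Gstm6 averaged 6.63 and 7.61 in POR-null pools, against 6.18 and 7.39 in wild-type pools. The mu-class median was 0.54 on the quercetin diet, 0.20 on the control diet and 0.37 over both, while the alpha-class median was -0.12, -0.29 and -0.20. The theta-class median over both diets was 0.21, the kappa probe set lay at 0.20 and the microsomal median at 0.15. The mu class is 4 genes, and 4 of its probe sets measure Gstm1 and 2 measure Gstm3, so these are not 8 independent values. The alpha class is 2 genes, with both Gsta3 probe sets among its 3, so these are not 3 independent values. Without POR-null control pool 1 the mu-class median was -0.06 on the control diet and 0.22 over both.

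That pool was the highest of its 3 in 14 of the 16 probe sets, whereas over all probe sets it was highest in 29.8%. Pool 2 of the quercetin-fed POR-null group was highest in 12 of 16, against 34.7% of all probe sets, and pool 2 of the quercetin-fed wild-type group in 12 of 16, against 32.0%. Many members thus stood high in the same pool of a group. Gsta4 was an exception in POR-null control pool 1, where it was lowest of the 3 pools.

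**Figure D3:**
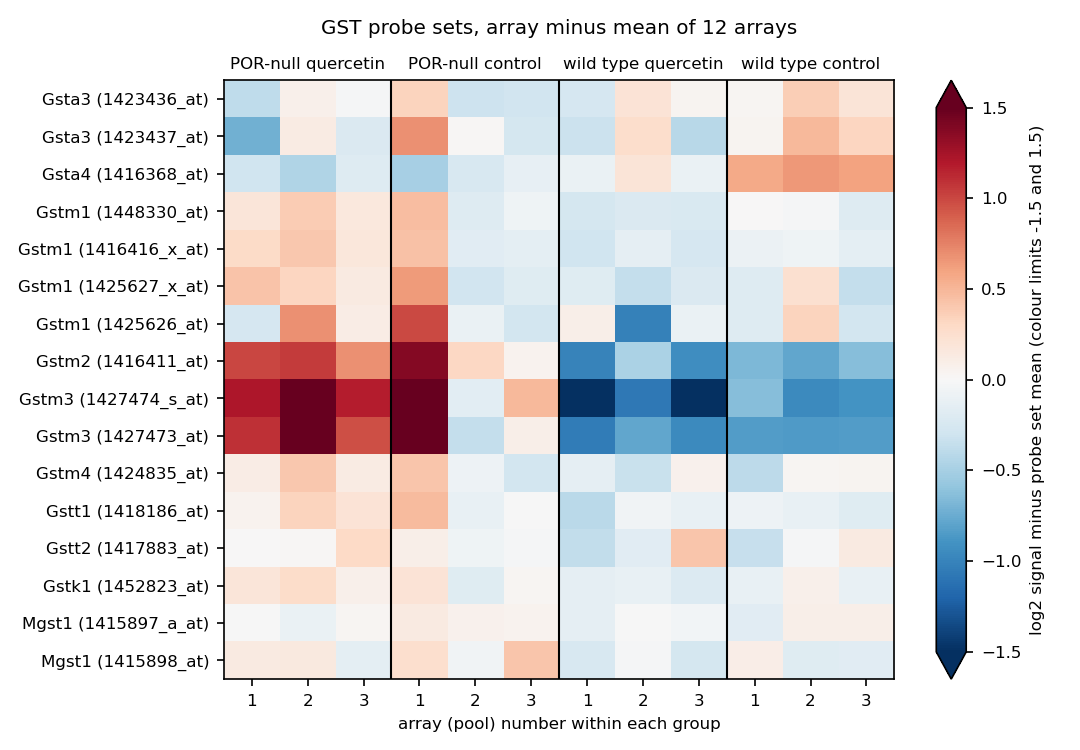
Log2 signal of each of the 16 probe sets (rows) on each of the 12 arrays (columns, numbered by pool within the 4 groups), minus that probe set's mean over all arrays; red is above and blue below the mean, with colours capped at 1.5 either way. The Gstm2 row is red in all 6 POR-null columns and blue in all 6 wild-type columns, the Gstm3 rows likewise except for POR-null control pool 2, which lies just below the mean, the Gsta4 row is red in wild-type control arrays, and the column of POR-null control pool 1 is red in most rows.

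Quercetin for 24 h gave no call among the members in either genotype, nor anywhere else on the array. In POR-null livers 0 of 16 probe sets were called, beside 0% of all (limma); at an unadjusted p under 0.05 there were 0 of 16 and 1581 of 22626. Gsta4 differed by -0.03 ± 0.11, with a 95% interval of -0.27 to 0.21. Gstm3 differed by 0.61 ± 0.39 and 0.70 ± 0.38 and Gstm2 by 0.33 ± 0.25, intervals that all include 0. Without POR-null control pool 1 the Gstm3 probe set 1427473_at was called, at 1.37 (limma, adjusted p = 0.014), while Gstm3 1427474_s_at at 1.25 and Gstm2 at 0.73 did not pass (limma, adjusted p = 0.15 and 0.32). The diets' arrays did not overlap in 1 of 16, Mgst1 1415897_a_at at -0.11 ± 0.08, against 14.1% of all. Here 10 of the 16 lay above 0, with a median of 0.13, against 10867 of 22626 and a median of -0.01 for all probe sets.

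In wild-type livers the diet likewise gave 0 of 16 calls, beside 0% of all (limma); at an unadjusted p under 0.05 there was 1 of 16 and 1942 of 22626. Gsta4 was that one: the quercetin-fed wild-type pools were 1.52-fold lower than the control-diet pools, at -0.60 ± 0.11 with a 95% interval of -0.85 to -0.36 and arrays that did not overlap (limma, adjusted p = 0.21). Without wild-type control pool 1 it was called, at -0.62 (limma, adjusted p = 0.047). This comparison shares the wild-type control arrays with the genotype difference of Gsta4 on the control diet. Arrays of the diets did not overlap in 3 of the 16 probe sets, against 11.8% of all; the others were Gstm1 1448330_at at -0.16 ± 0.13 and Gstm3 1427474_s_at at -0.55 ± 0.39. In all, 15 of the 16 lay below 0, with a median of -0.12, against 11581 of 22626 and a median of -0.00 for all probe sets.

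**Figure D4:**
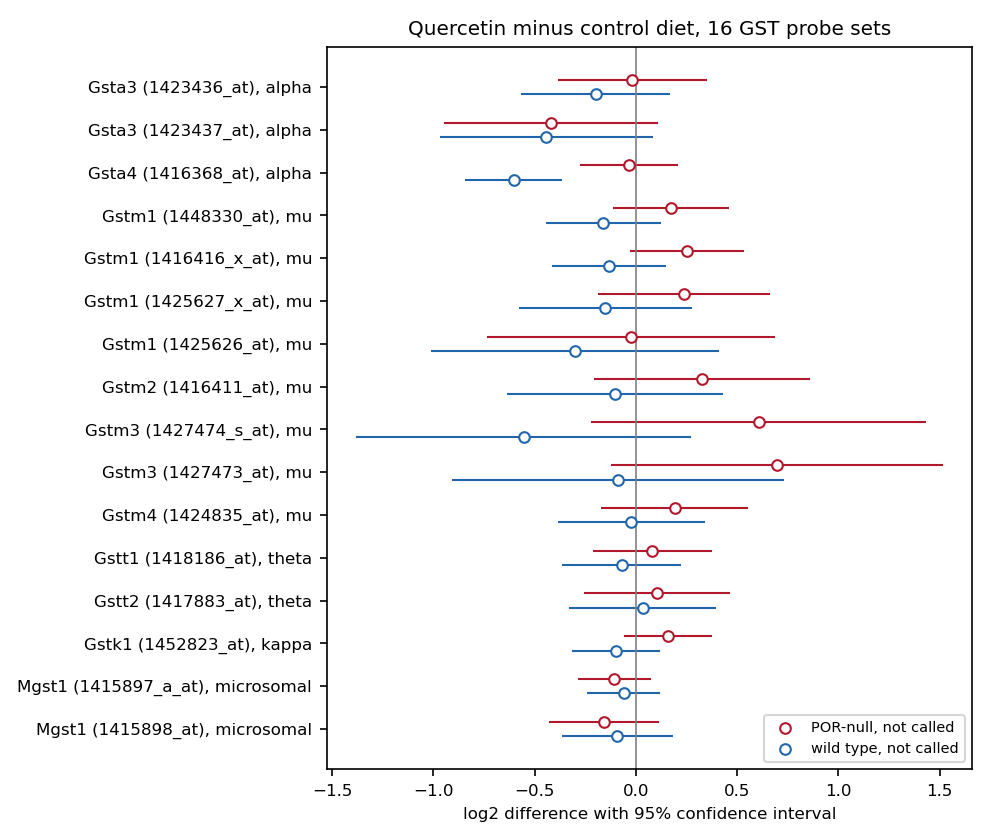
Log2 difference of quercetin minus control diet (x axis) for the 16 probe sets down the page, with 95% confidence intervals from limma; red stands for POR-null and blue for wild-type livers, and all points are open because none was called. The Gsta4 interval in wild type is the only one of the 32 that leaves out 0.

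The difference between the diet effects, taken as POR-null minus wild type, was called for 0 of 16, beside 0% of all probe sets (limma; 1 of 16 and 1397 of 22626 at an unadjusted p under 0.05). Gsta4 had 0.57 ± 0.16, with a 95% interval of 0.23 to 0.91 (limma, adjusted p = 0.80), and Gstm3 1.16 ± 0.55 and 0.78 ± 0.54. Without POR-null control pool 1 the Gstm3 values were 1.80 and 1.45 and that of Gstm2 was 0.83, against 0.43 with it, and none passed (limma, adjusted p = 0.15, 0.15 and 0.63). The sign was above 0 for 14 of 16, with a median of 0.27, against 11265 of 22626 and a median of -0.001 for all probe sets. The 16 probe sets measure 10 genes, so they are not 16 independent values.

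Among 14 other measured glutathione S-transferase and related genes of 19 listed, 2 rose and 1 fell in POR-null livers on the quercetin diet, and 0 passed on the control diet. Over all 12393 genes, each by its representative probe set, 2.49% were called on quercetin, 1.24% on the control diet and 7.94% over both diets, and the counts of this list and of the 5 that follow stand beside those shares. Gstt3, a theta gene on the same chromosome as Gstt1, read 8.74, 8.75 and 8.76 in quercetin-fed POR-null pools and 8.88, 7.79 and 7.46 in control-diet POR-null pools, against 7.32, 6.89 and 7.33 in quercetin-fed wild-type pools and 7.03, 7.05 and 7.29 in control-diet wild-type pools. Its POR-null arrays all lay above its wild-type arrays, by 1.57 ± 0.25 on quercetin (limma, adjusted p = 0.0062) and 0.92 ± 0.25 on the control diet (limma, adjusted p = 0.094). Gstp1, the pi-class enzyme that is abundant in male mouse liver and whose probe set may also detect the near-identical Gstp2, fell by 0.93 ± 0.15 on quercetin (limma, adjusted p = 0.0062) and differed by -0.52 ± 0.15 on the control diet (limma, adjusted p = 0.11). Gsta2, an alpha gene, rose by 0.58 ± 0.12 on quercetin (limma, adjusted p = 0.018), and that call was made in 2 of 6 repeats that left out 1 array. Over both diets the mu gene Gstm5 was also called, at 0.32 ± 0.08 (limma, adjusted p = 0.033), in 5 of 12 repeats without 1 array. The list's median was 0.06 on the quercetin diet and 0.04 on the control diet, and the alpha, mu and theta classes each held called and uncalled genes.

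Of 12 genes that supply glutathione, 1 fell on each diet, with list medians of -0.08 on quercetin and -0.14 on the control diet. Gclc, which makes the catalytic part of glutamate-cysteine ligase, fell by 0.89 ± 0.18 on quercetin and by 0.88 ± 0.18 on the control diet (limma, adjusted p = 0.017 and 0.031), calls made in 2 and 3 of 6 repeats without 1 array, and in 12 of 12 repeats over both diets. Its control-diet call was not made with only the groups compared in the fit. Over both diets Cbs, which condenses homocysteine with serine, fell by 0.48 ± 0.08 and Cth, which releases cysteine in the next step, rose by 0.49 ± 0.11 (limma, adjusted p = 0.0035 and 0.012). Of 11 genes of conjugate export and processing, Abcc3, a basolateral export pump, was the one that rose on quercetin, by 0.63 ± 0.15 (limma, adjusted p = 0.039), a call made in 1 of 6 repeats without 1 array. It differed by 0.51 ± 0.15 on the control diet, where none of the 11 passed, and rose by 0.57 ± 0.11 over both diets (limma, adjusted p = 0.12 and 0.0048).

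Of 18 other NRF2 targets, 2 rose on quercetin, Entpd5 by 0.87 ± 0.13 and the pentose phosphate enzyme Pgd by 1.17 ± 0.20 (limma, adjusted p = 0.0054 and 0.0082). On the control diet 0 of the 18 passed; the lowest p-values were those of Entpd5 at 0.56 ± 0.13 and Osgin1 at -1.14 ± 0.37 (limma, adjusted p = 0.058 and 0.15). The list medians were 0.25 and 0.05. Over both diets 3 of the 18 rose and 1 fell: Entpd5 rose by 0.72 ± 0.09 and Pgd by 0.72 ± 0.14 (limma, adjusted p = 0.00067 and 0.0065). Txn1, which encodes thioredoxin, rose by 0.25 ± 0.07 and Osgin1 fell by 1.18 ± 0.26 (limma, adjusted p = 0.037 and 0.014), calls made in 5 and 12 of 12 repeats without 1 array. The Osgin1 call was not made with a robust variance prior. That of Txn1 was not made with quantile normalization or with the replicate number as a block. Of 14 other CAR and PXR targets, 8 rose on quercetin, 6 on the control diet and 10 over both, with medians of 0.59 and 0.58 on the single diets. Cyp2b10, a cytochrome P450 that CAR induces, was higher by 4.37 ± 0.40 on quercetin and 4.34 ± 0.40 on the control diet, Aldh1a7, an aldehyde dehydrogenase, by 1.27 ± 0.15 and 1.00 ± 0.15, and Slco1a4, an uptake carrier, by 1.90 ± 0.21 and 1.18 ± 0.21. On the control diet the Slco1a4 call was made in 3 of 6 repeats without 1 array and the Aldh1a7 call in 5 of 6, and neither was made with only the groups compared in the fit. Of 14 regulators of these genes, 0 passed on quercetin and 2 fell on the control diet, the small MAF partners of NRF2 Maff and Mafg, by 0.69 ± 0.12 and 0.61 ± 0.12 (limma, adjusted p = 0.016 and 0.028), calls made in 4 and 2 of 6 repeats without 1 array. Neither of these control-diet calls was made with only the groups compared in the fit. In the mean of both diets 3 of the 14 fell: Mafg by 0.52 ± 0.08, Hnf4a, a hepatocyte nuclear receptor, by 0.31 ± 0.07, and Maff by 0.33 ± 0.08 (limma, adjusted p = 0.0021, 0.017 and 0.026). Maff was lower on the control diet only, where it averaged 5.94 in POR-null and 6.64 in wild-type pools. On quercetin it averaged 5.92 in POR-null and 5.89 in wild-type pools. The Mafg and Hnf4a calls were made in 12 of 12 repeats without 1 array and the Maff call in 5 of 12. Nfe2l2, which encodes NRF2, differed by 0.02 ± 0.11 on quercetin and 0.16 ± 0.11 on the control diet. None of the genes of these 6 lists was called in a diet contrast. All 6 lists were drawn up with earlier results of these livers known.

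The genes whose signal across the 12 arrays was most like that of Gstm2 were Aqp8, Aldh1a7, Serpinb1a, Prnp and Lgals1, with Pearson r of 0.97 to 0.98. Those most like Gsta4 were Rcbtb1, Setd1a, Ppp4r3b, Sertad2 and Rbm38, with r of 0.93 to 0.96. Gstm2 and Gsta4 had r = -0.74. The 12 points share the genotype and diet groups and their arrays, so these values describe likeness and carry no test.

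All 8 hepatocyte markers were bright, with gene means of 12.4 to 13.6, and their list mean lay at 12.79 to 12.95 and 12.82 to 13.01 in POR-null pools on quercetin and control diet, against 13.01 to 13.04 and 12.83 to 12.93 in wild-type pools. Of the 8, 1 was called over both diets, Tdo2, which fell by 0.26 ± 0.07 in POR-null livers (limma, adjusted p = 0.031). Over all 12393 genes 7.94% were called over both diets, and each count of called markers here stands beside that share. Cps1 and Hpd were the 2 that lay above 0, at 0.16 ± 0.08 and 0.25 ± 0.09, and were not called. The 10 macrophage and Kupffer cell markers averaged 7.87 to 8.14 and 7.74 to 8.10 in POR-null pools, against 7.48 to 8.26 and 7.27 to 7.74 in wild-type pools, and 3 of the 10, Mpeg1, Cd5l and C1qa, were higher in POR-null livers over both diets, by 0.90 ± 0.14, 0.70 ± 0.19 and 0.39 ± 0.11 (limma, adjusted p = 0.0021, 0.037 and 0.045). Of the 10, 2 lay below 0 over both diets, Marco at -0.43 ± 0.21 and Adgre1 at -0.05 ± 0.10, and neither was called. These marker genes were picked for mention after their values were seen. The 9 measured genes of exocrine pancreas, an organ beside the liver, averaged 6.91 to 9.86 and 6.58 to 8.35 in POR-null pools, against 6.27 to 8.24 and 6.66 to 8.74 in wild-type pools, with 0 of 9 called. Their part in the differences above was not tested.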

How the data were processed

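The authors deposited 1 value per probe set and array on a log2 scale, as their range of 2.57 to 14.17 shows; MAS5 and RMA are named in the submitters' processing notes, with neither version nor role, and how background was removed and arrays were scaled is not given there. The median of an array was 5.93 to 5.99, and arrays of 1 group correlated at 0.988 to 0.993. The values were used as they are, with no pseudocount. The table held 22690 probe sets, of which 64 controls were left out. Of all probe sets, 20380 had 1 symbol in the platform annotation, 691 had several and 1555 had none; only single-symbol probe sets were named, and a gene was summarised by its probe set of highest mean signal.

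A mean per group was fitted over all 12 arrays with limma 3.58.1 in R 4.3.3 (eBayes with an intensity trend, two-sided, Benjamini-Hochberg over 22626 probe sets, adjusted p under 0.05); the fit was tested on simulated data. The precision is limited by 3 arrays a group: the median 95% interval reached 0.239 either side of a control-diet difference. Every member is named. From each pathway list, at most 4 called genes per contrast with the lowest p were chosen, else the 2 with the lowest p. Not all of the genes so chosen are given above, and no value of theirs is given for the diet contrasts. Nfe2l2 was added by choice after its values were seen. Members and lists were chosen with earlier results of these data known. Promoter windows came from RefSeq GRCm38.p6, which held 8 of the 10 members. No batch is given in the labels.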

Additional observations from a re-analysis of the deposited data

How the results depend on the processing

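Comparisons within 1 diet or 1 genotype were repeated under 8 other settings and without each of their 6 arrays, and the mean of both diets and the difference of diet effects under 7 and without each of 12 arrays. The Gsta4 call on the control diet, the Gstm2 and first Gstm3 probe set calls on quercetin, and the Gsta4, Gstm2 and Gstm3 calls over both diets were made under every setting run. On quercetin 7 of the 16 probe sets were called with only the groups compared in the fit (3 reported), the added ones being 3 Gstm1 probe sets and Gstk1, and 2 to 3 without 1 array. On the control diet 1, Gsta4, was called with a robust variance prior and 1 with only the groups compared (2 reported), and 1 to 3 without 1 array. Over both diets 3 genes were called on the mean of each gene's probe sets, and 4 to 9 probe sets without 1 array (5 reported), 9 without POR-null control pool 2. Quercetin in POR-null and in wild type gave 0 to 1 without 1 array, and the difference of diet effects 0. Over all probe sets, the quercetin-diet count was 527, but 950 with only the groups compared, 1052 with array weights, and as low as 127 without quercetin-fed POR-null pool 1. The control-diet count was 262, but 30 with only the groups compared, and from 35 (without POR-null control pool 1) to 756 (without wild-type control pool 1) with 1 array left out. Over both diets it was 1714 and fell to 1335 without POR-null control pool 2 and to 991 without POR-null control pool 1. Quercetin in wild type gave 151 without wild-type control pool 1. On the mean of each gene's probe sets, 1061 of all genes were called over both diets. No called member changed sign. Of 1247 repeats of values not called, 16 were called and 53 had the other sign, 47 of these with an array left out. With the replicate number as a block (the replicate block), the counts were 3, 2 and 5 for genotype on quercetin, on the control diet and over both, and 0 for the diet contrasts; same-numbered pools correlated at -0.17 to 0.24 in their deviations, so the numbers were not taken as pairs. The cause of these shifts was not tested. Values were already log2, so no pseudocount was compared. With 3 arrays a group, the median 95% interval reached 0.239 either side of a control-diet genotype difference. That interval is not adjusted for the number of probe sets tested. For such a probe set a call therefore needed a larger difference than that.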
